A study of Mus musculus with 24 samples.

Results

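The 36 genes described here make cholesterol and fatty acids or steer that synthesis. They were taken by gene name from a list of 7 mevalonate enzymes, 11 enzymes from squalene to cholesterol, 5 sterol sensors and transcription factors, 4 sterol transport and LXR genes, 5 fatty acid synthesis enzymes and 4 fatty acid desaturases. All 36 were found among the 55401 genes of the count table, and all 36 passed the filter on low counts in both cell types. Poly(A) RNA was sequenced from 24 libraries of T cells sorted from the spleen of C57BL/6 mice aged 12 weeks and activated for 2 days in culture with antibodies against CD3 and CD28. The libraries fall into 6 groups of 4, CD4+ or CD8+ cells of 3 genotypes at Pou2af1, and in each group they are numbered 1 to 4. The wild type (WT) is titled Pou2af1+/+ and carries Pou2af1fl/fl without Cre (CD4.Cre-). The heterozygote (Het) is Pou2af1fl/+ and the knockout (KO) is Pou2af1fl/fl, both with CD4.Cre, a Cre driven by regulatory elements of Cd4. Cre was thus present only in Het and KO, and its presence and the loss of Pou2af1 cannot be told apart in a comparison with WT. No label says that the library numbers mark separate animals, so p-values measure the spread between these libraries, part of which may be technical.

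Cholesterol is built from acetyl-CoA through mevalonate and squalene to lanosterol and the later sterols, and fatty acids are built from the same acetyl-CoA through malonyl-CoA. The SREBP transcription factors, encoded by Srebf1 and Srebf2, switch on most of these genes. Scap carries the SREBP precursors out of the endoplasmic reticulum when sterols are scarce, and the Insig proteins hold them back when sterols are plentiful. Oxysterols activate the LXR receptors, which raise the cholesterol exporters Abca1 and Abcg1, the ligase gene Mylip and Srebf1. T cells turn on sterol and lipid synthesis when they are activated and begin to divide. Pou2af1 encodes OCA-B, a coactivator of the Oct transcription factors at octamer sites.

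SREBPs bind the sterol regulatory element, and NF-Y, which binds the letters CCAAT, often sits beside them. RefSeq promoter windows of GRCm38.p6, from 250 bases before to 50 bases after the start, were found for 28 of the 36 members and searched on both strands. The element TCACCCCAC was found in 1 of the 28, Hmgcs1, and in 0.614% of 27025 genes with a window. Its shorter form TCACNCCA, which the longer one contains, was found in Hmgcs1, Msmo1 and Srebf2, against 4.97% of genes. CCAAT was present in 22 of the 28 members, 78.6%, against 41.1% of genes. The GC box GGGCGG was present in 24 of the 28, 85.7%, against 38.2% of genes, and the E-box CACGTG in 6, 21.4%, against 8.09%. The octamer ATGCAAAT was present in 1 member, Srebf2, and in 1.97% of genes. A match describes letters in these windows and is not a site of binding. The stretches below are shown because their genes recur in the results. They lie upstream of the start, 5′ to 3′ on the gene's strand, with TCACNCCA in capitals in Hmgcs1 and Srebf2 and CCAAT, or ATTGG where it lies on the other strand, in capitals in the others.
Hmgcs1: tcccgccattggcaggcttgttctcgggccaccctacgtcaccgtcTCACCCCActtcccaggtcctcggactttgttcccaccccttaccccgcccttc
Srebf2: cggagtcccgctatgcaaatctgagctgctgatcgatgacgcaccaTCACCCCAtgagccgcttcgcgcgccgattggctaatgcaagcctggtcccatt
Lss: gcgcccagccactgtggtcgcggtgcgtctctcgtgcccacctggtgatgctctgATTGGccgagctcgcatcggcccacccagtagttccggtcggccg
Sc5d: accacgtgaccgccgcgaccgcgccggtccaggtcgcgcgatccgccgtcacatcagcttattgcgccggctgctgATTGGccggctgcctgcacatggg
Fasn: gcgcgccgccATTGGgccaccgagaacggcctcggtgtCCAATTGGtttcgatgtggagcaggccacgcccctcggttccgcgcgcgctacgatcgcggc
They are chr13:119690168-119690267 (plus strand), chr15:82147061-82147160 (plus), chr10:76531488-76531587 (plus), chr9:42264301-42264400 (minus) and chr11:120824548-120824647 (minus). In the Srebf2 stretch the octamer stands in lower case ahead of the capitals.

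Pou2af1 followed the labels. It stood at 38.4 ± 10.95 CPM (SD, n = 4; CPM is the count scaled to the library's TMM-normalized total) in CD4 WT, 20.2 ± 4.29 in CD4 Het and 2.20 ± 1.11 in CD4 KO. In CD8 cells it stood at 27.7 ± 6.18, 15.5 ± 1.40 and 1.71 ± 0.751 CPM. Libraries held 11.9 to 21.8 M (mega) gene counts. Cd4 and Zbtb7b summed to 533 to 640.2 CPM in CD4 libraries and 3.12 to 17.5 in CD8 libraries, and Cd8a and Cd8b1 to 7.64 to 15.0 and 939.7 to 1084. Macrophage markers summed to at most 4.11 CPM and neutrophil markers to at most 0.0713 CPM in any library. B cell markers summed to 5.65 to 28.1 CPM in CD4 libraries, highest in WT library 3, and to 3.15 to 14.97 CPM in CD8 libraries. The part of B cells in the levels below was not tested. Levels below are CPM on TMM-scaled library sizes. In such bulk samples less RNA per cell and fewer cells of a type cannot be told apart.

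Per kilobase of exon, the members spanned from 205 CPM for Scd2, a stearoyl-CoA desaturase that makes monounsaturated fatty acids, to 0.865 CPM for Abca1, averaged over 24 libraries. Exon lengths were available for 35 of the 36, all but Fdft1. Behind Scd2 came Cyp51, the lanosterol demethylase, with 98.6 CPM per kilobase, Hmgcs1, the cytosolic HMG-CoA synthase, with 80.3, and Acly, which cuts citrate to acetyl-CoA, with 78.9. Srebf2 stood at 35.5 and Srebf1 at 13.3 CPM per kilobase. The ratio of the highest to the lowest library was 21.8 for Scd1 and 19.4 for Fads2, the delta-6 fatty acid desaturase. No other member had a ratio over 5.43, the value of Lss, and the lowest was 1.64 for Ebp, a sterol isomerase. Multimapping reads were not counted, and 64.3% of the longest transcript of Acaca and 33.3% of that of Idi1 match another locus at 98% identity or more, so the levels of both are uncertain. Whether the counting used strand is not stated in the labels, and reads of overlapping genes may be shared or lost. Gm43738 overlaps 26.7% of the exon bases of Fdps, 5830462I19Rik 13.2% of those of Scap, Gm48342 12.1% of those of Hmgcs1 and Vps51 12.1% of those of Tm7sf2.

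**Figure D1:**
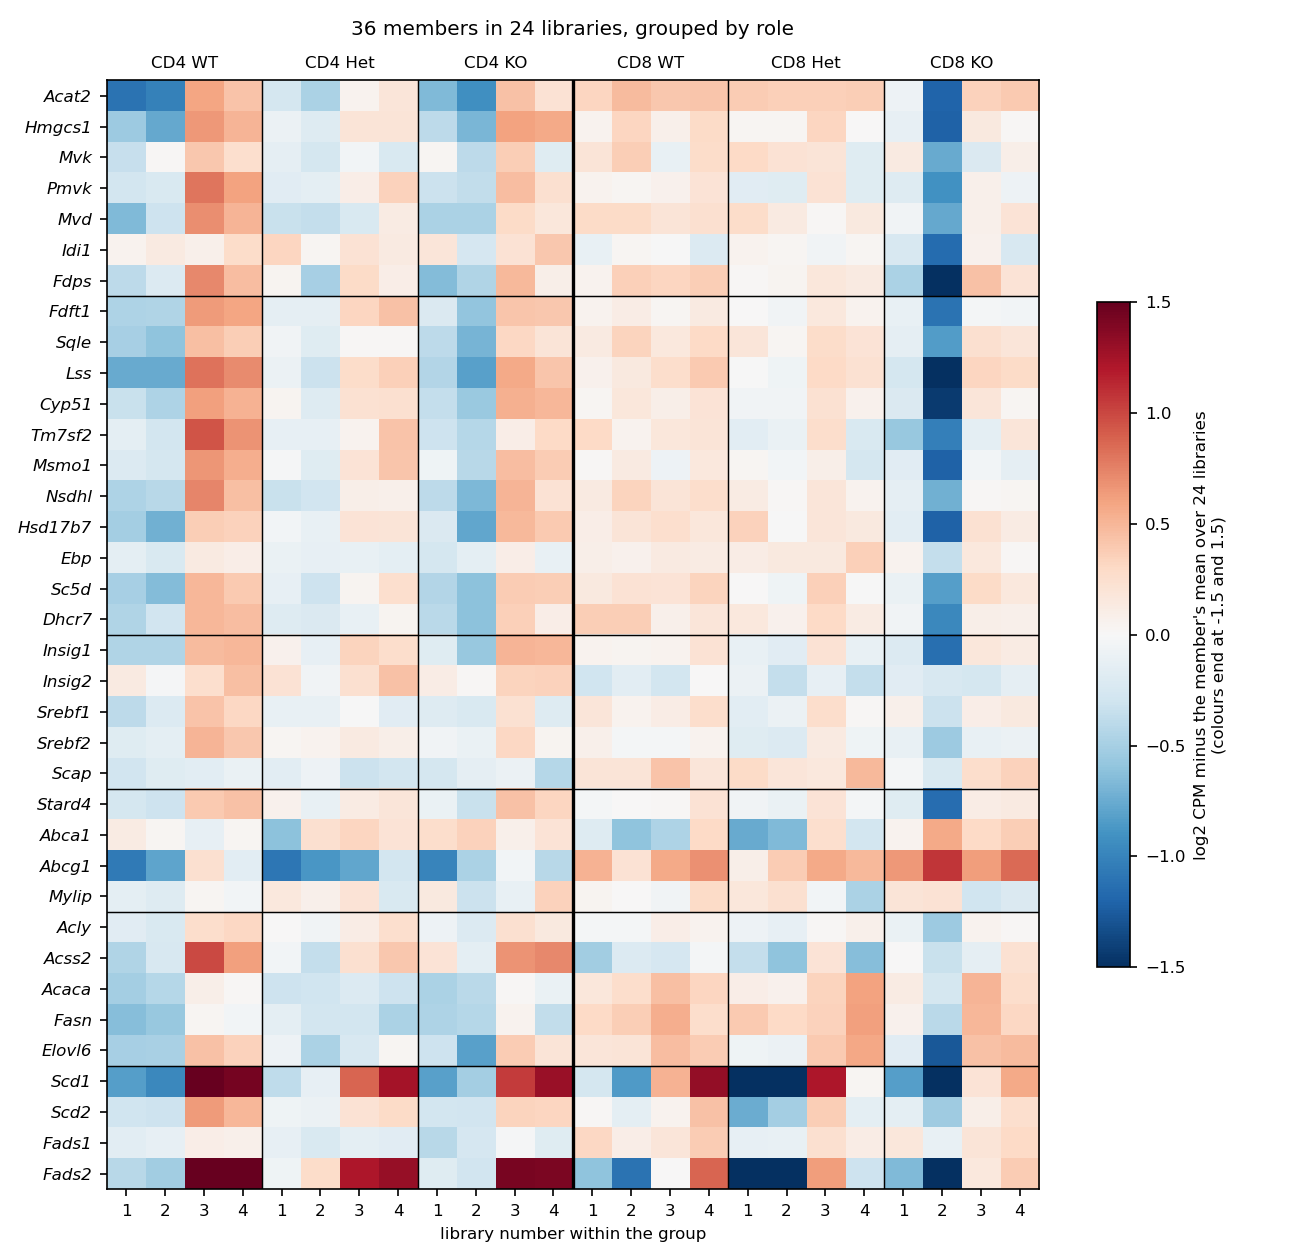
Heat map of log2 CPM of the 36 members (rows, split by lines into the 6 roles in the order given above) in the 24 libraries (columns, by group and library number), each less the member's own mean. CD4 libraries 3 and 4 are mostly red beside libraries 1 and 2 of the same genotype, and CD8 KO library 2 is blue in most rows but not in Abca1 and Abcg1.

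Loss of Pou2af1 was compared first in CD4 cells. In KO against WT, 0 of the 36 members passed edgeR's quasi-likelihood test at an adjusted p under 0.05, where 0.0708% of all 12719 genes passed. At an unadjusted p under 0.05, edgeR listed 1 member, Fads1, where it listed 2.44% of genes, DESeq2 1 and limma 0. In Het against WT, 0 members passed against 0.0865% of genes, with 0 members at an unadjusted p under 0.05 by edgeR (8.68% of genes), DESeq2 or limma. KO against Het likewise gave 0 members, against 0.0157% of genes, and 0 at an unadjusted p under 0.05 by any of the 3 tools (3.66% of genes by edgeR). DESeq2 and limma called 0 members in each of these comparisons too. The median log2 difference of the members was -0.10 in KO against WT, with 29 of 36 below 0, beside -0.01 over all genes, of which 52.1% were below 0. It was -0.11 in Het against WT, with 30 below 0, beside -0.02 and 55.3%, and 0.00 in KO against Het, with 17 below 0. Both comparisons with WT share the 4 WT libraries, and those with KO share the KO libraries.

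Fads1, the delta-5 fatty acid desaturase, had the lowest p in CD4 KO against WT. It stood at 53.6, 55.01, 64.3 and 63.3 CPM in WT libraries 1 to 4, at 55.01, 51.5, 54.5 and 53.5 in Het and at 44.9, 50.4, 59.5 and 53.04 in KO. The KO and WT ranges overlapped, and the log2 difference was -0.19 (SE 0.087), with an edgeR adjusted p of 1.00. In Het against WT it was -0.15 (SE 0.087, edgeR adjusted p = 0.681). Tm7sf2, a sterol reductase, was read at 5.25, 4.80, 11.2 and 9.27 CPM in WT libraries 1 to 4, at 5.34, 5.34, 6.07 and 7.81 in Het and at 4.70, 4.33, 6.26 and 7.16 in KO, a log2 difference of -0.46 (SE 0.27) in KO against WT with an edgeR adjusted p of 1.00. Its 2 highest values were WT libraries 3 and 4, while WT libraries 1 and 2 lay among the KO values. Mvk, mevalonate kinase, stood at 6.66, 8.604, 11.3 and 10.1 CPM in WT libraries 1 to 4, at 7.76, 7.08, 8.29 and 7.23 in Het and at 8.67, 6.46, 11.00 and 7.49 in KO, and its Het against WT difference was -0.28 (SE 0.18, edgeR adjusted p = 0.723). Acss2, which makes acetyl-CoA from acetate, stood at 8.41, 9.73, 22.8 and 17.6 CPM in WT libraries 1 to 4, at 11.2, 9.01, 13.6 and 15.2 in Het and at 13.3, 10.4, 18.4 and 19.03 in KO. Its KO against Het difference was 0.32 (SE 0.31, edgeR adjusted p = 1.00), and the 2 groups overlapped.

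Among the sensors and factors in CD4 cells, Srebf2, the SREBP gene most tied to cholesterol, stood at 223, 228, 359 and 333 CPM in WT libraries 1 to 4, at 257, 261, 278 and 268 in Het and at 243, 236, 313 and 259 in KO. Srebf1, more tied to fatty acids, stood at 56.4, 63.9, 99.5 and 91.9 CPM in WT libraries 1 to 4, at 68.5, 68.5, 73.5 and 65.8 in Het and at 64.4, 63.1, 86.5 and 64.7 in KO. The genotypes overlapped for both, and the log2 differences of KO against WT were -0.13 (SE 0.15) and -0.17 (SE 0.16). The spread within WT was wide for both, since libraries 3 and 4 lay well above libraries 1 and 2. Abca1, which loads cholesterol onto apolipoprotein, was read at 9.49, 8.89, 7.98 and 8.86 CPM in WT libraries 1 to 4, at 5.70, 10.3, 10.9 and 10.1 in Het and at 10.48, 11.1, 9.18 and 10.02 in KO, a difference of 0.20 (SE 0.17) in KO against WT (adjusted p = 1.00, edgeR) and of 0.15 (SE 0.17) in KO against Het. The latter was -0.03 without Het library 1, the low value of its group. Abcg1, which exports cholesterol to HDL, stood at 16.3, 19.6, 40.1 and 30.6 CPM in WT libraries 1 to 4, at 16.01, 18.6, 19.8 and 28.1 in Het and at 17.1, 24.4, 33.1 and 25.4 in KO, with a difference of -0.38 (SE 0.28) in Het against WT and of 0.28 (SE 0.28) in KO against Het.

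The sign of the Het comparison in CD4 cells differed between libraries 1 and 2 and libraries 3 and 4. These sets were read from values already seen, so the counts below describe that split and do not test it. With libraries 1 and 2 only, the members' median in Het against WT was 0.19 and 6 members were called higher, where 0.994% of genes were. Xist, transcribed in female cells, exceeded the Y-linked Ddx3y in both of these Het libraries and in neither of these WT libraries, so that here genotype and this difference cannot be told apart. With libraries 3 and 4 only, it was -0.35 and 0 members were called (0.435% of genes). At an unadjusted p under 0.05 edgeR listed 27 of the 36 there, against 17.3% of genes. Xist exceeded Ddx3y in 1 of those 2 WT and 0 of those 2 Het libraries, and its part was not tested. In KO against WT the medians were 0.04 and -0.17. With the library number as a block, 0 members were called in each of the 3 CD4 comparisons, while the genes called in Het against WT went from 11 to 45.

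In CD8 cells most members lay lower in KO than in WT, but library 2 of the KO group carried most of that difference. edgeR called 0 of 36 members in KO against WT (0.0634% of all 12612 genes), 0 in Het against WT (0.0634%) and 0 in KO against Het (0.0159%), and DESeq2 and limma also called 0 in each. At an unadjusted p under 0.05 there were 5 members in KO against WT by edgeR, 13.9% of them, against 2.89% of genes. DESeq2 listed 6 (2.66% of genes) and limma 8 (2.72%). There were 0 in Het against WT by all 3 tools (1.74% of genes by edgeR). In KO against Het there were 2 by edgeR (6.84% of genes), 2 by DESeq2 (6.80%) and 3 by limma (6.54%). The median log2 difference of KO against WT was -0.29, with 33 of 36 members below 0, beside 0.00 over all genes, of which 49.1% were below 0. Without KO library 2 it was -0.09, with 31 below 0. The median of KO against Het was -0.20, and -0.01 without that library. Het against WT had a median of -0.09 with 32 members below 0. Members varied together within a library, as in KO library 2, so these counts below 0 are no test.

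CD8 KO library 2 had the lowest of the 12 CD8 values for 28 of the 36 members, where 24.7% of all genes had theirs there. It had the highest value for 2 members, Abca1 and Abcg1, where 25.7% of genes did. The median member stood there at 50.8% of the median of the other 11 CD8 libraries. Fads2 was at 21.2%, Lss, the lanosterol synthase, at 27.5%, Fdps, the farnesyl diphosphate synthase, at 28.6%, Elovl6, a fatty acid elongase, at 31.9% and Acat2, the acetyl-CoA acetyltransferase that opens the pathway, at 33.5%. Among the sensors and factors, Insig1 stood at 44.1%, Srebf2 at 71.9%, Srebf1 at 75.02%, Scap at 74.6% and Insig2 at 95.4%. Abca1 stood at 169% and Abcg1 at 141%. The library's depth, 14.5 M counts, lay within the 12.6 to 16.6 M of the other 11, as did its summed proliferation markers, 5511 CPM against 5139 to 5965. Its CD4 lineage markers summed to 17.5 CPM against 3.12 to 8.20, its B cell markers to 15.0 against 3.15 to 11.0, and its T cell markers to 1359 against 1048 to 1302. It was the only KO library of the CD8 cells in which Xist exceeded Ddx3y, as Xist also did in 3 of the other 11. The part of these in the low levels was not tested. Against library 1 of its own KO group, the median member ratio of library 2 was 0.608 in CD8 and 0.900 in CD4 cells. CD4 KO library 2 still had the lowest CD4 sums of the mevalonate enzymes, 336 CPM, and of the enzymes from squalene to cholesterol, 783 CPM. CD4 WT library 2 was close, at 339 and 835 CPM.

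**Figure D2:**
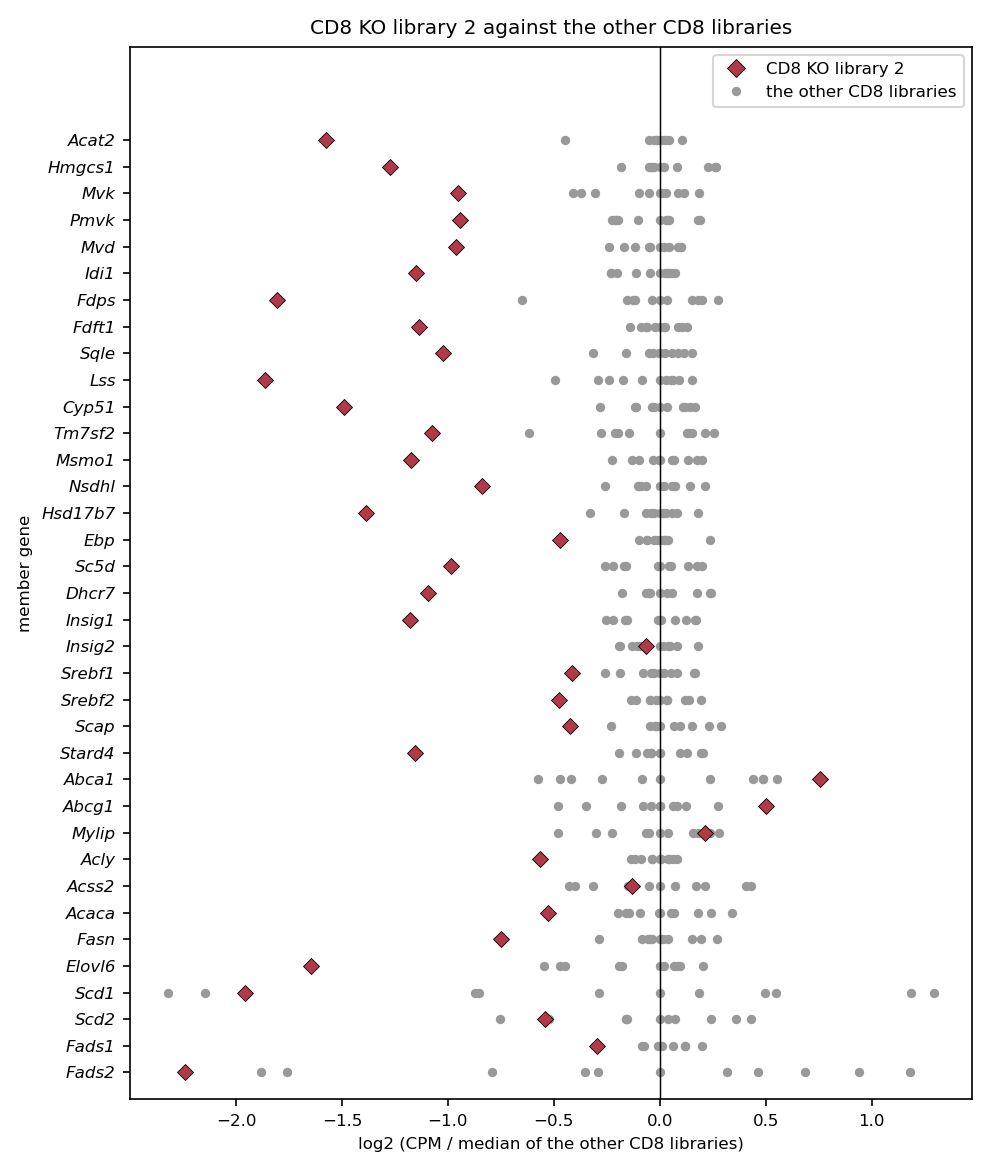
Each member's level in the 12 CD8 libraries as log2 of its CPM over the median of the 11 libraries other than KO library 2. Diamonds mark KO library 2, which lies below all grey points for 28 members and above them for Abca1 and Abcg1.

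Nsdhl, an X-linked enzyme that removes methyl groups from sterols, had the lowest p in CD8 KO against WT. It stood at 44.9, 51.4, 46.6 and 48.99 CPM in WT libraries 1 to 4, at 44.3, 41.3, 46.1 and 42.3 in Het and at 37.04, 24.8, 41.3 and 41.7 in KO. Every KO value lay below every WT value, and the log2 difference was -0.41 (SE 0.13), with an unadjusted p of 0.00883 and an edgeR adjusted p of 0.987. Without KO library 2 the difference was -0.26. Fdft1, the squalene synthase, and Srebf2 also had KO values all below WT, so that 3 of the 36 members did not overlap, where 2.05% of genes did not. Fdft1 stood at 74.1, 77.3, 72.9 and 78.3 CPM in WT libraries 1 to 4, at 71.7, 68.6, 79.6 and 73.97 in Het and at 66.1, 33.1, 69.8 and 69.6 in KO. Srebf2 stood at 265, 246, 246 and 262 CPM in WT libraries 1 to 4, at 223, 219, 276 and 241 in Het and at 233, 173, 233 and 238 in KO. Outside library 2 the gap to WT was narrow for both. Tm7sf2 stood at 7.18, 6.02, 6.57 and 6.68 CPM in WT libraries 1 to 4, at 5.21, 5.44, 6.99 and 4.96 in Het and at 3.92, 2.85, 5.25 and 6.63 in KO, a difference of -0.51 (SE 0.22) that was -0.33 without KO library 2.

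The 2 exporters had differences above 0 in CD8 KO. In CD8 cells Abcg1 stood at 48.98, 39.6, 50.4 and 54.8 CPM in WT libraries 1 to 4, at 36.1, 44.3, 50.4 and 47.7 in Het and at 53.4, 71.2, 52.6 and 61.1 in KO. Each KO value was above each Het value, 1 of the 36 members for which these groups did not overlap, where 2.73% of genes did not. The log2 difference of KO against Het was 0.42 (SE 0.13), with an edgeR adjusted p of 0.642, and 0.32 without KO library 2. Against WT it was 0.30 (SE 0.13). Abca1 was read at 7.63, 5.71, 6.32 and 10.7 CPM in WT libraries 1 to 4, at 5.13, 5.51, 10.4 and 7.20 in Het and at 8.99, 12.9, 10.7 and 11.2 in KO, a difference of 0.64 (SE 0.24) in KO against Het (adjusted p = 0.677, edgeR), and 0.55 without that library. Mylip, the LXR target whose product marks the LDL receptor for breakdown, was low throughout, from 3.01 to 5.10 CPM in CD8 libraries. Ebp stood at 40.1, 39.2, 41.4 and 40.9 CPM in WT libraries 1 to 4, at 40.5, 41.7, 41.5 and 48.2 in Het and at 39.1, 29.5, 41.9 and 38.1 in KO, with a difference of -0.20 (SE 0.096) in KO against Het (adjusted p = 0.738, edgeR).

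In CD8 Het against WT the lowest p belonged to Fads1, which stood at 74.2, 64.5, 68.3 and 78.3 CPM in WT libraries 1 to 4, at 55.2, 55.4, 71.2 and 64.7 in Het and at 67.9, 55.6, 68.8 and 74.05 in KO. Het libraries 1 and 2, the CD8 Het libraries in which Xist exceeded Ddx3y, were the lowest of the 8, and the difference was -0.22 (SE 0.11, edgeR adjusted p = 1.00). Scd2 stood at 1097, 981, 1126 and 1479 CPM in WT libraries 1 to 4, at 649.7, 762, 1408 and 986 in Het and at 981, 753, 1153 and 1297 in KO, and its Het against WT difference was -0.30 (SE 0.23, edgeR adjusted p = 1.00). Srebf1 stood at 83.6, 76.8, 80.1 and 88.7 CPM in WT libraries 1 to 4, at 66.05, 69.4, 88.5 and 74.8 in Het and at 77.7, 59.3, 79.1 and 81.9 in KO, a difference of -0.14 (SE 0.11, edgeR adjusted p = 1.00). The groups overlapped for all 3 genes. Whether the genotype effect differed between cell types was tested over all 24 libraries. edgeR called 0 members for KO, against 0.00753% of 13288 genes, and 0 for Het, against 0.00753%, with 0 members at an unadjusted p under 0.05 in either (1.72% and 4.05% of genes) and 0 called by DESeq2 or limma.

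The members varied most with the library number in CD4 cells. The members were chosen with earlier results of these data known, so the shares below describe the list and are no independent test. An F test of the 4 numbers, fitted together with genotype over the 12 CD4 libraries, called 26 of the 36 members (edgeR, adjusted p under 0.05), where 18.0% of all 12719 genes were called. By role these were 5 of 7 mevalonate enzymes, 10 of 11 enzymes from squalene to cholesterol, 2 of 5 sensors and factors, 2 of 4 transport and LXR genes, 4 of 5 fatty acid synthesis enzymes and 3 of 4 desaturases. The 10 not called were Mvk, Idi1, Ebp, Srebf1, Srebf2, Scap, Abca1, Mylip, Fasn and Fads1. Leaving out each CD4 library in turn gave 20 to 28 called members. The contrast lay between libraries 1 and 2 on the one side and 3 and 4 on the other. That division was read from the values already seen, so it is described here and not tested.

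In CD4 cells all 6 libraries numbered 3 and 4 lay above all 6 numbered 1 and 2 for 23 of the 36 members, where 8.66% of genes showed that order. Within WT both libraries 3 and 4 were above both 1 and 2 for 34 members (32.7% of genes), within Het for 25 (28.1%) and within KO for 32 (29.5%). Ratios of libraries 3 and 4 to libraries 1 and 2 are ratios of geometric means. The median member's ratio was 1.85 in WT, 1.58 in KO and 1.23 in Het, and for 31 members WT exceeded KO and KO exceeded Het. Whether the ratios differ between genotypes was not tested. Summed proliferation markers had the same order, 4585 to 4868 CPM in libraries 1 and 2 and 4914 to 5388 in 3 and 4. Singly, only 3 of the 12 proliferation genes had it. NK cell markers had the order in part, 11.98 to 23.5 and 18.3 to 35.4 CPM. Up to 2 of the 3 NK cell markers had 0 counts in a CD4 library, so their sum does not measure NK cells. Xist exceeded Ddx3y in 3 of the 6 libraries numbered 1 and 2 and in 1 of the 6 numbered 3 and 4. The part of these in the result was not tested; with that status as a covariate, edgeR called 28 members, and 3052 of the 12719 genes. Depth overlapped, from 13.4 to 16.6 and from 11.9 to 21.8 M counts.

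**Figure D3:**
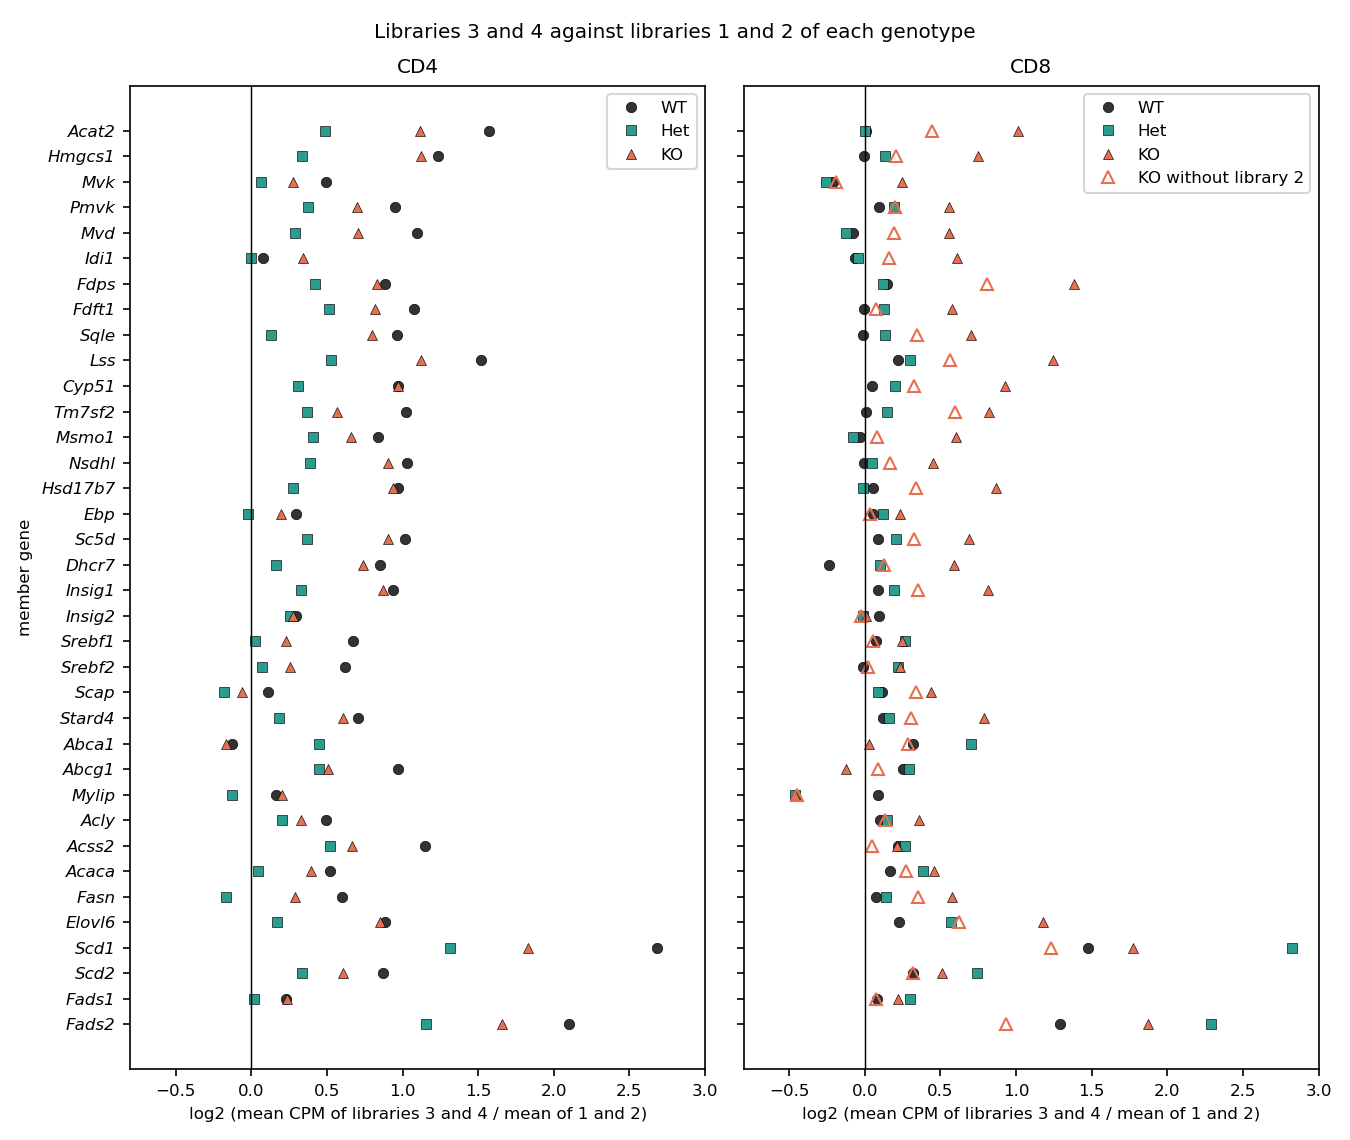
Ratio of the geometric mean CPM of libraries 3 and 4 to that of 1 and 2, on a log2 scale, in CD4 (left) and CD8 cells (right). Each member and genotype has a point. Open triangles give the arithmetic mean of CD8 KO libraries 3 and 4 over library 1 alone. In CD4 cells WT points lie mostly farthest right and Het points nearest 0, and in CD8 cells most WT and Het points lie near 0 except for Scd1 and Fads2.

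Libraries 3 and 4 lay wholly above 1 and 2 for 5 of the 7 mevalonate enzymes, all but Mvk and Idi1, and for 10 of the 11 enzymes that follow, all but Ebp. Summed over the 7 mevalonate enzymes, CD4 libraries stood at 361, 339, 804 and 731 CPM in WT libraries 1 to 4, at 485, 447, 575 and 593 in Het and at 399.7, 336, 752 and 714 in KO. Summed over the 11 enzymes from squalene to cholesterol they stood at 888, 835, 1758 and 1645 CPM in WT libraries 1 to 4, at 1136, 1013, 1306 and 1379 in Het and at 935, 783, 1602 and 1521 in KO. In each genotype libraries 3 and 4 exceeded libraries 1 and 2 in both sums. Hmgcs1 stood at 242, 208, 554 and 503 CPM in WT libraries 1 to 4, at 333, 309, 403 and 405 in Het and at 268, 219.9, 537 and 521 in KO, an edgeR adjusted p for library number of 0.00571. Sqle, the squalene epoxidase that takes an oxygen-dependent step, stood at 104, 97.05, 202 and 192 CPM in WT libraries 1 to 4, at 143, 131, 149.8 and 149 in Het and at 113, 91.5, 184 and 169.7 in KO (adjusted p = 0.0185, edgeR). Lss stood at 54.8, 54.6, 162 and 151 CPM in WT libraries 1 to 4, at 86.7, 73.8, 112 and 119 in Het and at 68.00, 52.5, 137 and 123 in KO (adjusted p = 0.00363, edgeR). For all 3 genes the 6 libraries numbered 3 and 4 did not overlap the other 6.

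Fdft1 had the lowest p for library number among the sterol enzymes. It stood at 51.7, 52.2, 111 and 108 CPM in WT libraries 1 to 4, at 64.95, 64.95, 89.01 and 96.5 in Het and at 61.5, 47.2, 95.5 and 94.5 in KO in CD4 cells (adjusted p = 0.00208, edgeR). Msmo1, the methylsterol oxidase, stood at 120.1, 116, 219 and 203 CPM in WT libraries 1 to 4, at 137, 123, 159 and 186 in Het and at 132, 104, 190.5 and 180.2 in KO (adjusted p = 0.00250, edgeR). Sc5d, the sterol desaturase, stood at 93.9, 83.9, 186 and 173 CPM in WT libraries 1 to 4, at 121, 107, 136 and 158 in Het and at 97.6, 86.2, 173 and 170.8 in KO (adjusted p = 0.00351, edgeR). Each ratio of libraries 3 and 4 to 1 and 2 was largest in WT, 2.11 for Fdft1, 1.79 for Msmo1 and 2.02 for Sc5d, and smallest in Het, 1.43, 1.33 and 1.29. Other members with libraries 3 and 4 wholly above were Acat2 (20.9 to 37.7 against 46.8 to 67.8 CPM), Cyp51 (285 to 432 against 489 to 644), Nsdhl (25.5 to 33.5 against 42.9 to 67.7), Hsd17b7, a sterol ketoreductase (23.7 to 39.7 against 46.7 to 57.3), and Dhcr7, which reduces a late sterol precursor (28.6 to 38.6 against 40.6 to 62.3). So were the phosphomevalonate kinase Pmvk (39.2 to 45.9 against 54.4 to 88.7), the decarboxylase Mvd (16.4 to 20.9 against 22.2 to 42.3), Fdps (4.55 to 7.34 against 7.58 to 11.8) and Tm7sf2 (4.33 to 5.34 against 6.07 to 11.2). Idi1, the isopentenyl diphosphate isomerase, was not among them, with 22.7 to 33.7 against 28.4 to 35.7 CPM.

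Among the sensors, Insig1, itself an SREBP target, stood at 85.2, 85.3, 162 and 165 CPM in WT libraries 1 to 4, at 122, 107, 147 and 140.1 in Het and at 103, 78.8, 166 and 165 in KO in CD4 cells (adjusted p = 0.00434, edgeR). Insig2 differed less between the sets, 34.2 to 41.4 against 41.95 to 48.7 CPM, also without overlap. Srebf2 and Srebf1, given above, missed the threshold, with edgeR adjusted p-values of 0.0623 and 0.109. Their ratios of libraries 3 and 4 to 1 and 2 were 1.54 and 1.59 in WT and 1.05 and 1.02 in Het. Scap had ratios from 0.882 to 1.08 over the genotypes. Stard4, a soluble cholesterol carrier, ran from 233 to 306 CPM in libraries 1 and 2 and from 321 to 399 in 3 and 4. Abcg1 was called as well (adjusted p = 0.0193, edgeR), though its sets overlapped, 16.01 to 24.4 against 19.8 to 40.1 CPM, and Abca1 was not (adjusted p = 0.768, edgeR). Mylip was not called either, with 3.34 to 4.67 against 3.57 to 5.30 CPM.

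Among the desaturases, Scd1 and Fads2 had the largest ratios of the 36 members in each genotype. Scd1, a stearoyl-CoA desaturase like Scd2, stood at 21.7, 19.7, 170.8 and 104 CPM in WT libraries 1 to 4, at 29.6, 35.2, 70.2 and 91.7 in Het and at 21.9, 26.96, 79.3 and 94.4 in KO in CD4 cells, ratios of 6.43 in WT, 2.48 in Het and 3.56 in KO (adjusted p = 0.00202, edgeR). Fads2 stood at 33.2, 31.03, 147 and 129 CPM in WT libraries 1 to 4, at 42.5, 53.6, 103 and 109.6 in Het and at 39.02, 36.5, 119 and 119 in KO, and its edgeR adjusted p of 6.95e-04 was the lowest of the 36. Scd2 stood at 886, 878, 1695 and 1534 CPM in WT libraries 1 to 4, at 1040.3, 1021, 1267 and 1331 in Het and at 901, 893, 1375 and 1359 in KO (adjusted p = 0.00363, edgeR). For these 3 desaturases every library numbered 3 or 4 was above every library numbered 1 or 2. Fads1, which works next to Fads2 on polyunsaturated fatty acids, was not called (adjusted p = 0.204, edgeR). In fatty acid synthesis, Acly (351 to 416 against 447 to 512 CPM) and Acss2 (8.41 to 13.3 against 13.6 to 22.8) did not overlap between the sets. Elovl6 was called too (adjusted p = 0.0206, edgeR), with sets that overlapped, 42.6 to 71.2 against 63.4 to 101.5 CPM, as was Acaca (adjusted p = 0.0417, edgeR). Fasn, the fatty acid synthase, stood at 267, 280.1, 424 and 404 CPM in WT libraries 1 to 4, at 374, 341, 342 and 298 in Het and at 301, 309, 429.6 and 323 in KO. Its sets overlapped, with Het library 1 above Het libraries 3 and 4 (adjusted p = 0.264, edgeR).

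**Figure D4:**
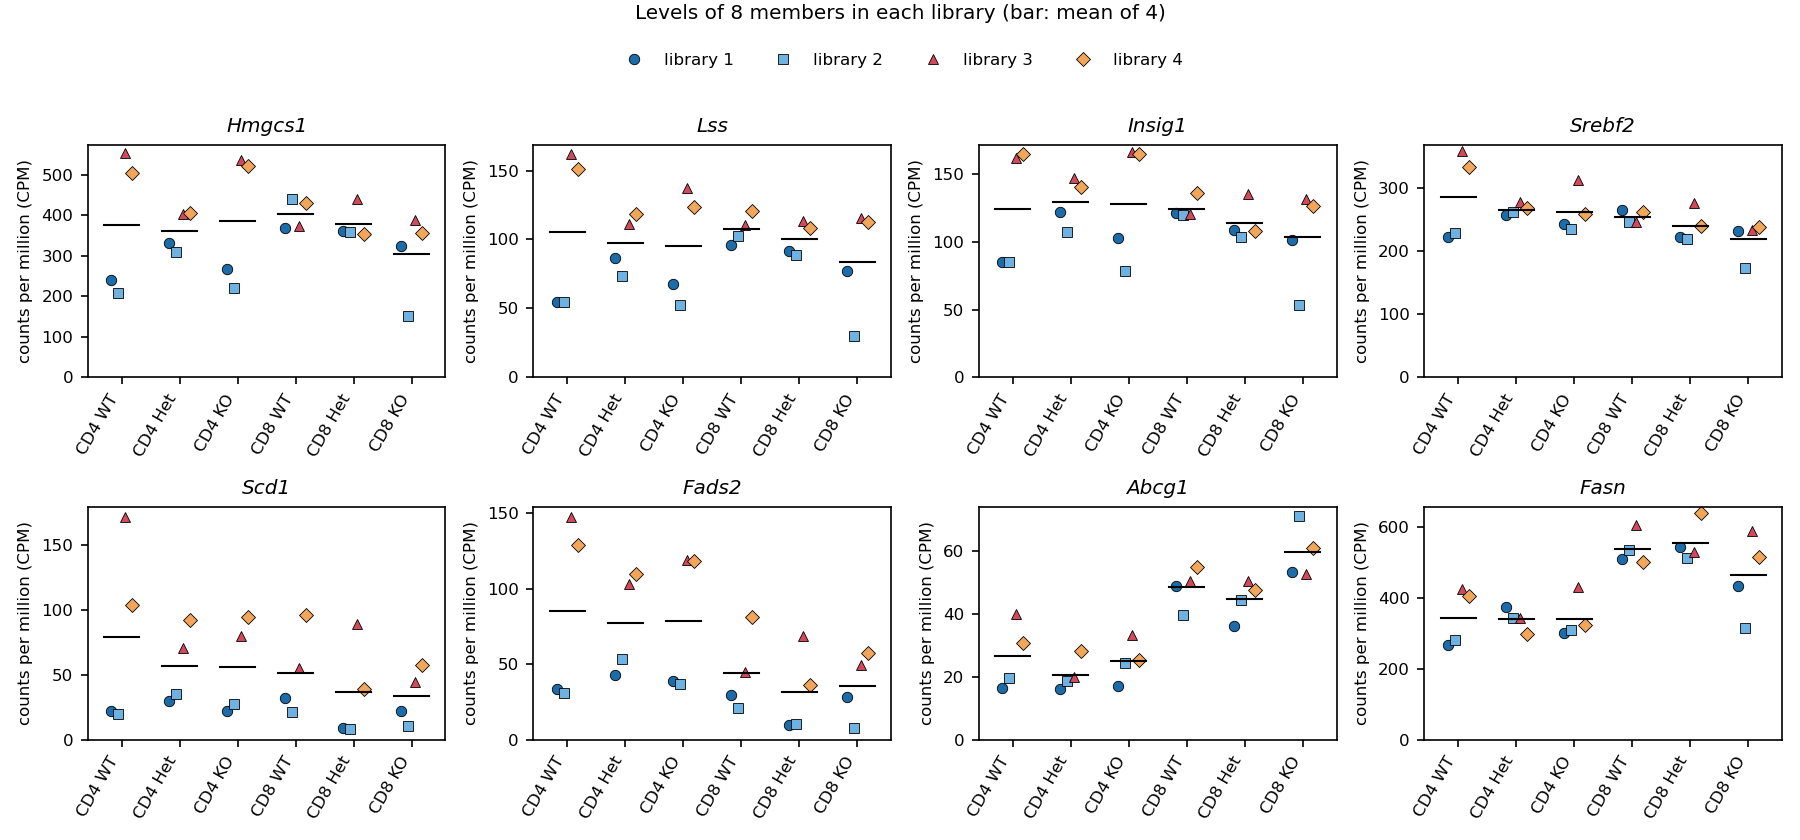
CPM of 8 members in each library, by group on the x axis, with a symbol for each library number and a bar for the mean of 4. In CD4 groups the triangles and diamonds of libraries 3 and 4 sit above libraries 1 and 2 for Hmgcs1, Lss, Insig1, Scd1 and Fads2, and CD8 KO library 2 is the lowest CD8 point for Hmgcs1, Lss, Insig1, Srebf2, Fads2 and Fasn and the highest for Abcg1.

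In CD8 cells the same test called 2 of the 36 members, Scd1 and Fads2, where 2.89% of all 12612 genes were called, and leaving out each CD8 library in turn gave 0 to 3. It gave 0 without WT library 1, Het library 1, Het library 2, KO library 1 or KO library 4, and 1 without WT library 4, Het library 4 or KO library 3. All 6 libraries numbered 3 and 4 lay above the other 6 for 6 members, Lss, Acly, Acaca, Elovl6, Scd1 and Fads2, where 5.49% of genes did. Within WT both libraries 3 and 4 were above both 1 and 2 for 11 members (22.8% of genes), within Het for 17 (23.7%) and within KO for 29 (31.8%). The median ratio was 1.06 in WT and 1.11 in Het. In KO it was 1.49, and 1.18 for the arithmetic mean of libraries 3 and 4 over library 1 alone. Proliferation markers summed to 5139 to 5514 CPM in CD8 libraries 1 and 2 and to 5489 to 5965 in 3 and 4, and B cell markers to 5.73 to 14.97 and 3.15 to 5.81 CPM. NK cell markers summed to 64.03 to 90.1 and 43.4 to 69.8 CPM, with 1 or 2 of the 3 at 0 counts in each CD8 library. The part of these lists was not tested. Whether the effect of number differed between the cell types was not tested.

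Scd1 in CD8 cells stood at 32.05, 21.4, 55.2 and 95.9 CPM in WT libraries 1 to 4, at 8.85, 7.85, 89.1 and 39.2 in Het and at 21.7, 10.1, 44.5 and 57.3 in KO (adjusted p = 0.0239, edgeR). Fads2 stood at 29.3, 20.7, 44.7 and 81.4 CPM in WT libraries 1 to 4, at 9.74, 10.6, 68.7 and 35.9 in Het and at 28.05, 7.59, 49.5 and 57.6 in KO (adjusted p = 0.0326, edgeR). Both were lowest in Het libraries 1 and 2 and in KO library 2. These are 3 of the 4 CD8 libraries in which Xist exceeded Ddx3y; the other, WT library 3, was not low, and the part of this was not tested. Elovl6 stood at 85.3, 85.9, 103 and 97.3 CPM in WT libraries 1 to 4, at 71.4, 70.3, 98.7 and 112 in Het and at 66.7, 31.1, 102 and 104 in KO (adjusted p = 0.209, edgeR). Acaca, the acetyl-CoA carboxylase that makes malonyl-CoA, stood at 100.1, 107, 121 and 111 CPM in WT libraries 1 to 4, at 95.7, 93.3, 112 and 136 in Het and at 96.6, 74.2, 126 and 107 in KO (adjusted p = 0.182, edgeR). For both, libraries 3 and 4 of every genotype exceeded all libraries 1 and 2. Scd2 had an edgeR adjusted p of 0.158 and Fads1 of 0.300. Among the sterol genes, Hmgcs1 stood at 368, 441, 373 and 431 CPM in WT libraries 1 to 4, at 360.3, 359, 441 and 354 in Het and at 323, 152, 389 and 357 in KO in CD8 cells. Sqle stood at 162, 187, 165 and 182 CPM in WT libraries 1 to 4, at 168, 150.5, 178 and 170.9 in Het and at 135, 82.7, 175 and 168 in KO. Insig1 stood at 121, 119.8, 121 and 136 CPM in WT libraries 1 to 4, at 108, 103, 136 and 108 in Het and at 101.4, 53.3, 132 and 127 in KO. All 3 were lowest in KO library 2, and outside it the 2 sets of numbers overlapped. Summed over the 11 enzymes from squalene to cholesterol, CD8 libraries stood at 1241, 1343, 1267 and 1376 CPM in WT libraries 1 to 4, at 1199.7, 1146, 1373 and 1225 in Het and at 1043, 532, 1313 and 1227 in KO, so that 11 of the 12 lay between 1043 and 1376 CPM.

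Between the cell types, Abcg1, Fasn, Acaca, Scap and Fads1 were higher in WT CD8 than in WT CD4 cells and Insig2 was lower, and none of the 18 mevalonate and sterol enzymes was called in WT. edgeR called 6 of the 36 members in WT, 16.7%, where 31.2% of all 13288 genes were called. Of these 5 were higher (14.7% of genes) and 1 lower (16.6%). In Het 6 were called (34.9% of genes), 5 higher (17.1%) and 1 lower (17.8%), and in KO 5 (24.1%), 3 higher (11.0%) and 2 lower (13.0%). The members' share was below that of all genes in each genotype in this fit. NK cell markers (Ncr1, Klrb1c and Eomes) summed to 11.98 to 35.4 CPM in CD4 and 43.4 to 90.1 CPM in CD8 libraries. In each CD8 library 1 or 2 of these 3 genes had 0 counts, so the sum does not measure NK cells. Proliferation markers summed to 4585 to 5388 CPM in CD4 and 5139 to 5965 CPM in CD8 libraries. The part of these in the differences was not tested. Abcg1, Scap and Insig2 were called in all 3 genotypes, and 8 members in at least 1. With the CD4 and CD8 libraries of the same genotype and number as a block, an alternative chosen after seeing the data, edgeR called 9 members in WT (36.9% of genes), 9 in Het (40.2%) and 10 in KO (29.1%), where the 10 were 5 higher and 5 lower. Xist exceeded Ddx3y in the same 4 combinations of genotype and number in both cell types. Without CD4 KO library 1 the KO count was 2, and without CD4 KO library 4 or CD8 KO library 4 it was 3.

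Abcg1 rose by 0.86 (SE 0.23) on the log2 scale in WT (adjusted p = 0.00624, edgeR), from 26.6 ± 10.8 CPM in CD4 to 48.5 ± 6.40 in CD8 (SD, n = 4), by 1.12 (SE 0.23) in Het and by 1.25 (SE 0.23) in KO. Its libraries overlapped in WT by 1 value, CD4 library 3 at 40.1 against CD8 library 2 at 39.6 CPM. Fasn in CD8 cells stood at 508, 535, 605 and 499 CPM in WT libraries 1 to 4, at 543, 512, 529 and 637 in Het and at 433, 315, 588 and 515 in KO. Every WT and Het value was above every CD4 value of the same genotype, and the differences were 0.64 (SE 0.17) in WT (adjusted p = 0.00513, edgeR) and 0.71 (SE 0.17) in Het (adjusted p = 0.00194, edgeR). In KO it was 0.44 (SE 0.16, edgeR adjusted p = 0.0545), with KO library 2 among the CD4 values. On libraries 3 and 4 only, the WT difference of Fasn was 0.41 and not called (edgeR adjusted p = 0.0628). Acaca in CD4 cells stood at 62.5, 66.1, 94.5 and 89.99 CPM in WT libraries 1 to 4, at 71.8, 72.6, 77.02 and 71.9 in Het and at 63.9, 67.1, 89.8 and 82.8 in KO, and rose in CD8 by 0.49 (SE 0.15) in WT and 0.57 (SE 0.15) in Het. The WT call was lost without CD4 WT library 1 or 2 or CD8 WT library 3, with adjusted p-values of 0.0655, 0.0636 and 0.0542 by edgeR.

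In CD4 cells Scap stood at 74.8, 80.5, 82.02 and 85.2 CPM in WT libraries 1 to 4, at 81.9, 86.2, 72.9 and 75.4 in Het and at 76.3, 83.1, 85.7 and 67.9 in KO. In CD8 cells it stood at 105, 104, 123 and 103 CPM in WT libraries 1 to 4, at 112, 103, 102 and 128 in Het and at 89.2, 78.2, 109.7 and 116 in KO. All CD8 values of WT and Het were above all CD4 values of the same genotype, and the log2 differences were 0.43 (SE 0.11) in WT, 0.49 (SE 0.11) in Het and 0.33 (SE 0.11) in KO, with edgeR adjusted p-values of 0.00380, 0.00114 and 0.0280. The KO call was lost without CD4 KO library 1 or 4 or CD8 KO library 3 or 4, with edgeR adjusted p-values from 0.0618 to 0.125. On libraries 1 and 2 only, the KO difference of Scap was 0.073 (edgeR adjusted p = 0.586). Insig2 in CD4 cells stood at 39.1, 35.2, 42.5 and 48.7 CPM in WT libraries 1 to 4, at 41.4, 34.2, 41.95 and 48.2 in Het and at 38.4, 36.001, 44.8 and 45.1 in KO. In CD8 cells it stood at 28.9, 32.02, 29.4 and 35.8 CPM in WT libraries 1 to 4, at 33.5, 27.7, 32.8 and 27.8 in Het and at 31.7, 30.2, 29.7 and 32.5 in KO. The cell types did not overlap in Het and KO and overlapped by 1 value in WT. It fell by 0.39 in WT, 0.44 in Het and 0.40 in KO on the log2 scale, with edgeR adjusted p-values of 0.00986, 0.00351 and 0.00999. On libraries 1 and 2 only, Insig2 was called in none of the genotypes, with edgeR adjusted p-values of 0.0808, 0.0662 and 0.127. Fads1 was higher in CD8 by 0.27 (SE 0.10) in WT (adjusted p = 0.0424, edgeR) and by 0.36 (SE 0.10) in KO (adjusted p = 0.0119, edgeR). The WT call was lost without library 1 or 2 of CD4 WT or library 1, 3 or 4 of CD8 WT, with edgeR adjusted p-values from 0.0512 to 0.117, and the KO call without CD4 KO library 1, at 0.0521. The WT call of Fads1 was also lost with no filter on low counts, at 0.0991, and on libraries 3 and 4 only, at 0.186 by edgeR. Ebp was called higher in Het, by 0.31 (SE 0.099, edgeR adjusted p = 0.0179). The call was lost without CD8 Het library 4, at 0.0713, and on libraries 1 and 2 only, at 0.149 by edgeR. Idi1 fell by 0.48 in KO (adjusted p = 0.0361, edgeR), and 6 of the 8 fits that left out 1 library lost that call, with adjusted p-values from 0.0504 to 0.120. It was also lost on libraries 1 and 2 only, at 0.0819, and on libraries 3 and 4 only, at 0.0576 by edgeR.

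**Figure D5:**
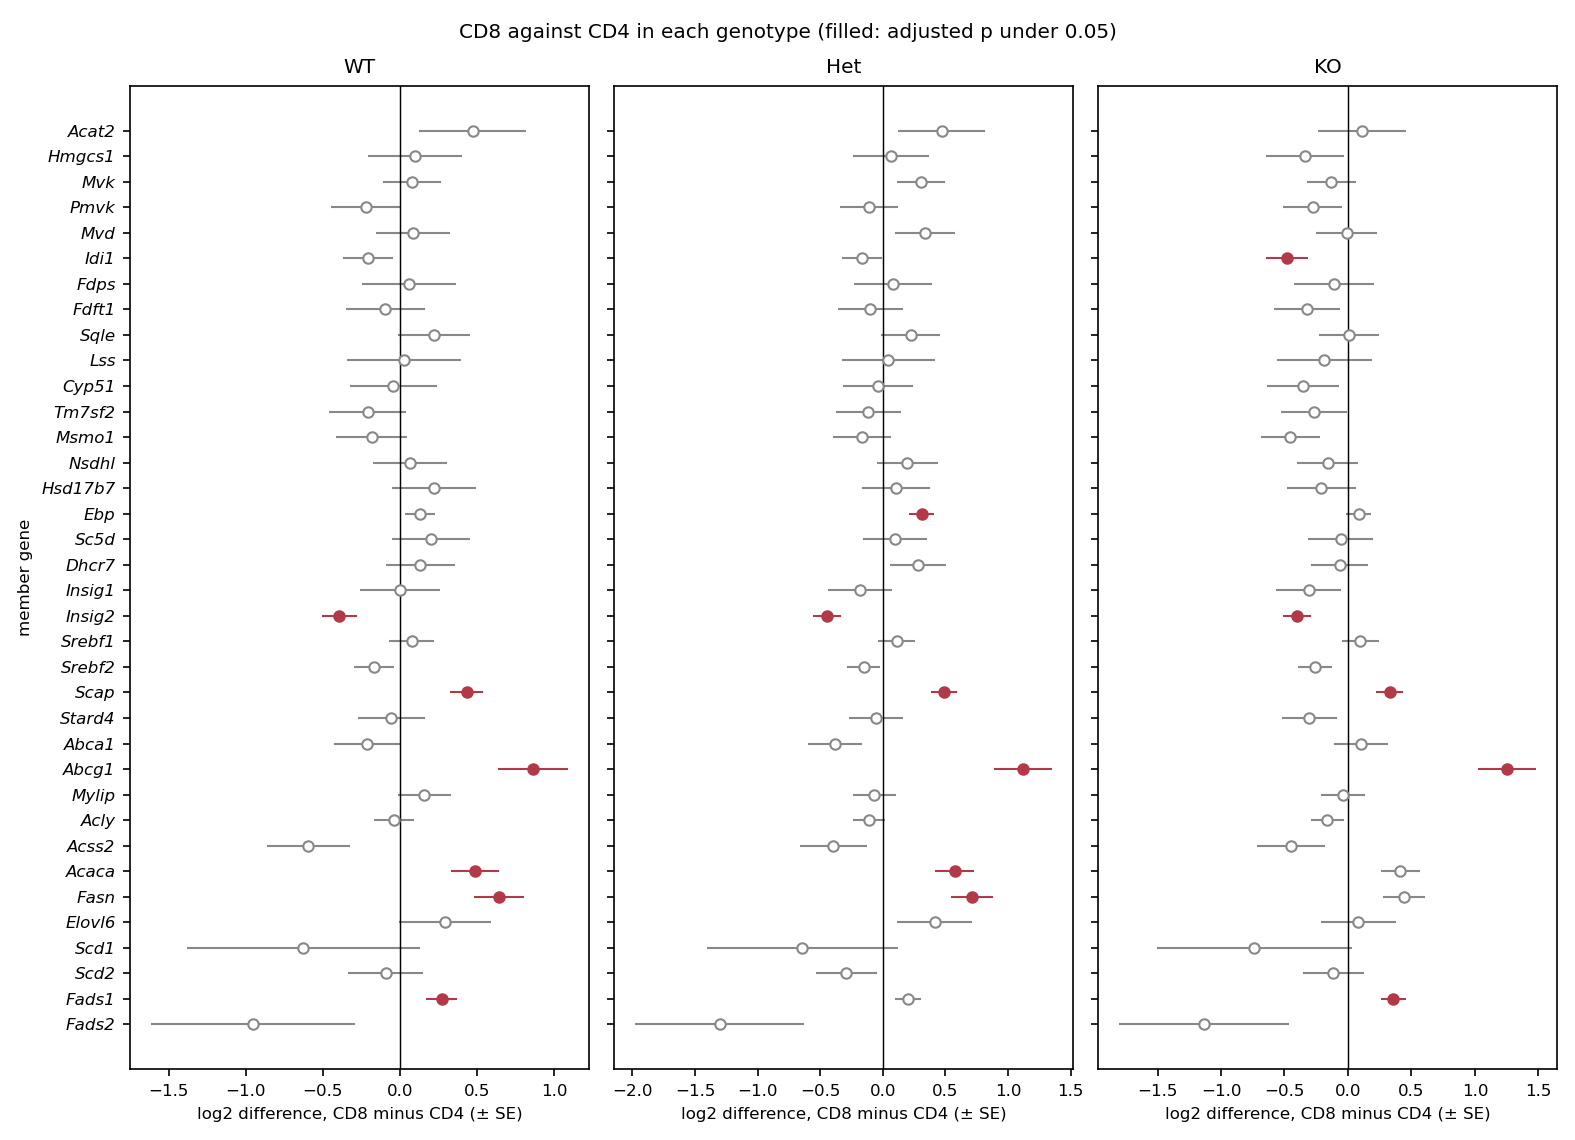
Log2 difference of CD8 less CD4 for each member in WT, Het and KO, with its SE; filled red points passed the edgeR test at an adjusted p under 0.05. Abcg1 lies farthest right in all 3 panels, 0.86, 1.12 and 1.25, and Insig2 is filled to the left of 0 in each.

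The 2 sets of library numbers were read from values already seen. Call counts within a set rest on 2 libraries a group, describe that split and are no test of it. Summed over the 11 enzymes from squalene to cholesterol, WT CD4 libraries 1 to 4 stood at 888, 835, 1758 and 1645 CPM. WT CD8 libraries 1 to 4 stood at 1241, 1343, 1267 and 1376 CPM. In WT, the mevalonate and sterol enzymes were called in opposite directions between cell types in the 2 sets. Of these 18 enzymes, edgeR called 9 higher in CD8 and 0 lower in libraries 1 and 2 alone, and 0 higher and 8 lower in libraries 3 and 4 alone. In Het it called 2 higher and 0 lower and then 1 higher and 2 lower, and in KO 0 and then 4 lower. Over all 36 members in WT, libraries 1 and 2 alone gave 15 called higher in CD8 (15.9% of genes) and 0 lower (17.7%), with a median of 0.44, whereas libraries 3 and 4 alone gave 3 higher (9.08% of genes) and 14 lower (12.0%), with a median of -0.29. Het gave 6 higher and 3 lower in libraries 1 and 2 (30.6% of genes called either way) and 7 higher and 4 lower in 3 and 4 (29.3%). KO gave 3 higher and 0 lower (24.5%), then 5 higher and 7 lower (19.8%). Over the 3 genotypes, the 6 CD8 and the 6 CD4 libraries numbered 1 and 2 did not overlap for 5 members, where 25.1% of genes did not, and those numbered 3 and 4 for 13, where 28.3% did not. The 5 were Abcg1, Acaca and Fads1, higher in CD8, and Insig2 and Fads2, lower, and all 5 were also among the 13 with the same sign. Fads2 in CD8 libraries had 0.449 of the CD4 mean in libraries 1 and 2 and 0.465 in libraries 3 and 4. Its difference was not called over all 4 numbers, -0.95 (SE 0.66) in WT (adjusted p = 0.291, edgeR). Fdft1, Msmo1, Insig1, Idi1, Acly and Acss2 lay lower in all CD8 libraries numbered 3 and 4 than in all CD4 libraries so numbered.

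Further genes of these pathways were taken from lists of 21 sterol, 8 LXR, 20 fatty acid synthesis and elongation and 10 fatty acid oxidation genes. In each of the 6 genotype comparisons edgeR, DESeq2 and limma called 0 of them, of 55 genes tested in CD4 and 53 in CD8 cells. At an unadjusted p under 0.05, CD4 Het against WT had 6 by edgeR (8.68% of all genes), 7 by DESeq2 and 6 by limma. CD4 KO against WT had 1 by each tool (2.44% of genes by edgeR) and CD4 KO against Het 0 by each (3.66%). CD8 KO against Het had 2 by each tool (6.84% of genes by edgeR) and CD8 KO against WT 0 by each (2.89%). CD8 Het against WT had 1 by edgeR (1.74% of genes), 1 by DESeq2 and 0 by limma. For library number in CD4 cells edgeR called 9 of the 20 sterol genes tested, 2 of 8 LXR genes, 5 of 17 fatty acid synthesis genes and 1 of 10 oxidation genes, beside the 18.0% of all genes given above. Acat1, the mitochondrial acetyl-CoA acetyltransferase, ran from 73.1 to 81.6 CPM in libraries 1 and 2 and from 85.7 to 101.5 in 3 and 4. Slc25a1, the citrate carrier that feeds Acly, ran from 34.5 to 40.8 and from 50.2 to 62.9 CPM. Lpcat3, an LXR target that remodels phospholipids, ran from 28.04 to 33.9 and from 36.7 to 52.9. All 3 were higher in every library numbered 3 or 4. The opposite order was seen in Erlin2, a protein of the endoplasmic reticulum membrane, with 50.3 to 56.5 CPM in libraries 1 and 2 and 40.5 to 44.3 in 3 and 4 (adjusted p = 0.00767, edgeR). Acadm, the oxidation enzyme for medium-chain fatty acids, had it too, with 58.6 to 77.4 and 45.8 to 54.6 CPM (adjusted p = 0.0104, edgeR). In CD8 cells 1 gene of these lists was called, Acsl4, a ligase of arachidonic acid (adjusted p = 0.0403, edgeR). Between cell types in WT, edgeR called 7 of 20 sterol genes, 2 higher and 5 lower in CD8, where 31.2% of all genes were called, with Npc2, which moves cholesterol out of lysosomes, at -0.83. It called 3 of 8 LXR genes, with the LXR partner Rxra at -3.54, 1 of 17 synthesis genes, Elovl5, an elongase, at 0.27, and 2 of 10 oxidation genes, Hadha, of the trifunctional protein, at 0.32 and Acadvl, for very long chains, at -0.56 on the log2 scale.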

How the data were processed

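Poly(A) RNA of 24 libraries was sequenced, 4 in each of 6 groups, with Trizol extraction and KAPA RNA HyperPrep libraries per the labels' protocols. Trimmomatic 0.35, STAR 2.7.1a, DESeq2 1.26.0 and the build GRCm38 are named in the submitters' processing notes, which give neither the annotation release nor a strand setting. The authors deposited raw gene counts, which were used as deposited, and a normalized signal in which each library's counts are divided by 1 factor. The 4 entries ahead of the genes, which total reads assigned to no single gene, held 31.6 to 35.0% of a library and were left out. Genes were filtered with filterByExpr (minimum count 10), scaled with TMM and tested with edgeR 4.0.16 (quasi-likelihood F test, 2-sided) in R 4.3.3, with Benjamini-Hochberg adjustment over all genes tested and a threshold of 0.05. Each cell type was fitted on its 12 libraries, and CD8 against CD4 and the interactions on all 24. Library number was tested as a factor of 4 levels beside genotype. The procedure was tested on simulated counts drawn independently for each gene and library. Such counts do not cover members that vary together or an outlying library. Alternatives were DESeq2 1.42.0, limma 3.58.1 on log2 of the deposited normalized signal plus 1, other size factors, no filter, covariates, number subsets and leaving out each library. Members and gene lists were chosen with earlier results of these data known. All 36 members are accounted for. Values by library are given for the 3 members of lowest p in each genotype comparison, for up to 6 in the others and for 10 members chosen for their role (Srebf1, Srebf2, Insig1, Abca1, Abcg1, Scd1, Scd2, Hmgcs1, Sqle and Fasn). At most 3 genes of each other list are named. Same-numbered CD4 libraries deviated together from their group means (r from 0.132 to 0.580). Some CD4 libraries of different numbers did so as strongly, with r up to 0.598 between WT and KO. CD4 and CD8 libraries of the same genotype and number also deviated together (0.147 to 0.451). Same-numbered libraries of the CD8 groups did not all do so (lowest r -0.226).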

Additional observations from a re-analysis of the deposited data

Results flagged for a closer look

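In each group of 4, a member's highest or lowest library was listed where its gap to the nearest other took a share of the group's range above Dixon's 95% critical value. Chance lists about 1 in 20 groups, and 18 of 216 were listed here, 0 in CD4 WT, 2 in CD4 Het, 2 in CD4 KO, 5 in CD8 WT, 5 in CD8 Het and 4 in CD8 KO. Several members were listed for the same library, so the 216 are not independent. The count is therefore no test against chance. The 4 in CD8 KO were all the lowest value in library 2, with Fdft1 at 33.1 CPM (others 66.1 to 69.8), Msmo1 at 59.7 (others 123 to 134), Dhcr7 at 22.6 (others 42.5 to 46.6) and Srebf2 at 173 (others 233 to 238). In CD8 Het, library 3 was high for Hmgcs1 at 441 CPM, Pmvk at 59.0, Sc5d at 169 and Insig1 at 136, and library 4 was high for Ebp at 48.2. In CD8 WT, library 4 was high for Pmvk at 58.6 CPM, Insig1 at 136 and Stard4 at 340.2, library 3 was high for Scap at 123, and library 1 was low for Fdps at 7.41. In CD4 KO, library 3 was high for Srebf1 at 86.5 CPM and Fasn at 429.6. In CD4 Het, library 1 was low for Abca1 at 5.70 CPM and library 3 was high for Acaca at 77.0.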

How the results depend on the processing

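The count of called members stayed at 0 under every alternative run for 5 of the 6 genotype comparisons and both interactions. The exception was CD4 Het against WT, with 6 on libraries 1 and 2 only. CD4 KO against Het turned sign for Abca1, to -0.13 on libraries 3 and 4 only and from -0.031 to 0.23 when each library was left out, the former without Het library 1, whose value was the lowest of its group. For CD8 against CD4, WT went from 6 to 15 on libraries 1 and 2 only and 17 on 3 and 4 only. Het went from 6 to 10 with the replicate block, with the 2 sets of numbers as a covariate, and with sex genes added, and to 11 on libraries 3 and 4 only. KO went from 5 to 8 with each of those 3 fits, to 10 with the block of CD4-CD8 pairs (chosen after seeing the data), to 3 on libraries 1 and 2 only and to 12 on 3 and 4 only. Leaving out each library gave 2 to 6 in KO. For library number in CD8 cells, DESeq2's likelihood ratio test gave 4 in place of 2 and no filter on low counts gave 11. Leaving out each library there gave 0 to 3. In CD4 cells the range over all alternatives was 20 to 29 beside 26. For the replicate block, covariate, DESeq2 and no-filter fits the share of all genes is not set beside these member counts. Whether the members moved more than other genes was not tested. Over all genes, calls ranged from 7 to 491 (11 in the fit reported) in CD4 Het against WT, 2 to 13 (2) in CD4 KO against Het, 1 to 242 (2) in CD8 KO against Het, 6 to 12 (9) in CD4 KO against WT, 5 to 9 (8) in CD8 KO against WT, 4 to 8 (8) in CD8 Het against WT, 1277 to 3700 (2294) for library number in CD4 and 79 to 1398 (364) in CD8. For CD8 against CD4, calls over all genes ranged from 2822 to 5331 (4149) in WT. They ranged from 3869 to 5724 (4643) in Het and from 2647 to 4205 (3198) in KO. The cause of these changes was not tested. The replicate block changed no other call count of the members beyond 1.5 times. Same-numbered libraries of the CD8 groups did not all deviate together, and no label says what a number marks. With 4 libraries a group, members at a few CPM (Mylip, Tm7sf2, Fdps, Mvk and Abca1) rest on the fewest counts.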
